A study of Caenorhabditis elegans with 2 samples.

Results

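The DREAM complex subunit genes of Caenorhabditis elegans are 8 of 19973 protein-coding genes on the nuclear chromosomes, and the values below are the peaks of HMG-20, a high-mobility-group protein, in and upstream of them. The 8 genes were listed by name as lin-9, lin-35, lin-37, lin-52, lin-53, lin-54, efl-1 and dpl-1, and this family was chosen from earlier results on the same peaks, in which the pooled and replicate signals of lin-53, lin-9 and lin-54 stood out. The peak values of these genes are therefore a description, and no test of them is given. For each gene, every region was listed whose summit lay between 1000 bp upstream of a 5' end and the 3' end of the gene. This gave 35 of 59096 nuclear regions in the authors' ranked list, and each of the 8 genes had between 2 and 6 of them.

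The data are chromatin immunoprecipitation sequencing of whole worms in 1 group with 2 biological replicates. The worms were of strain RW12240, in which a TY1, EGFP and 3xFLAG tag had been inserted at hmg-20 by CRISPR (allele st12240), and they were taken as young adults at 64 hours after synchronisation by starving larvae that hatched from bleached worms. Chromatin was sheared by sonication and precipitated with an antibody against GFP, and the labels name a control experiment that was not analysed here. Whole worms mix all tissues, so a weak peak in every cell and a strong peak in a few cells cannot be told apart. The deposited lists hold no read totals and the depth behind each peak is unknown. Nothing in the labels says whether the replicates share parents or a day of culture.

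DREAM combines a pocket protein of the retinoblastoma family, an E2F and DP pair that binds DNA, and a core of proteins called MuvB. In animal cells it represses genes of the cell cycle during quiescence. In the worm its genes belong to the synthetic multivulva B class, which limits vulval fates and keeps germline genes silent in somatic cells. LIN-54 is the MuvB protein that contacts DNA, at a short element known as the cell cycle homology region (CHR), and EFL-1 with DPL-1 binds E2F elements.

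The sequences around 4 promoter summits are shown, each at the strongest promoter region of its gene. They were not picked by their words, and each holds letters of both kinds of element, in different numbers and places. Each is read 5' to 3' on the strand of the named gene, on WBcel235 (ce11), from the RefSeq assembly, and covers up to 100 bases on each side of the summit, ending where an annotated exon begins. Capitals mark matches, on either strand, to the CHR words TTTGAA and TTCGAA, to the E2F words TTCCCGC and TTCGCGC or TTGCCGC and TTGGCGC, and to GAGAGA. No word holds another. The first 3 sequences are from genes in the authors' conservative list. The lin-52 sequence is the strongest promoter region, by pooled signal, among the genes that are not in that list. The sequence at lin-53, which had the strongest summit of all, is not shown here, and 2 CHR matches and 1 E2F match were counted within 100 bases of it. The sequence at lin-35 is not shown either, and those at lin-37 and dpl-1 are left out because the summit lay in an annotated exon. The lin-9 stretch is chromosome III, 8904201 to 8904401, the lin-54 stretch chromosome IV, 13240652 to 13240787, the efl-1 stretch chromosome V, 16965746 to 16965946, and the lin-52 stretch chromosome III, 9825621 to 9825821.
lin-9: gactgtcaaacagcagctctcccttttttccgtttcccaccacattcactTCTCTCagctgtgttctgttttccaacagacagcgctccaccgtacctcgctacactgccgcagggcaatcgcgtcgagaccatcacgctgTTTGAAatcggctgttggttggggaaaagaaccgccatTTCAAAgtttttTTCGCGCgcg
lin-54: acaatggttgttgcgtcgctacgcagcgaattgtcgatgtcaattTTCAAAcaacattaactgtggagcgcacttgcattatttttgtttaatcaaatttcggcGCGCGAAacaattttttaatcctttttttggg
efl-1: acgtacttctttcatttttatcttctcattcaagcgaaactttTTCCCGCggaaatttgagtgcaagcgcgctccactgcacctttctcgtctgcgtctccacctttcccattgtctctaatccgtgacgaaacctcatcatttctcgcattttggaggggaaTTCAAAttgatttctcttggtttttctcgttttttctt
lin-52: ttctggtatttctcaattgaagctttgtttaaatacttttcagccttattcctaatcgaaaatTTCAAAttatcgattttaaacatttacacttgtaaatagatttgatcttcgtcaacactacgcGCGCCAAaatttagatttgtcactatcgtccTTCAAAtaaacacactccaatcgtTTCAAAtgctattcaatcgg

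In lin-9, 2 CHR words begin 41 and 79 bases downstream of the summit and an E2F word 91 bases downstream. In lin-54 the CHR word begins 10 bases downstream of the summit and the E2F word 69 bases downstream, and the full window counted below holds 2 E2F matches. In efl-1 the E2F word begins 57 bases upstream of the summit and the CHR word 63 bases downstream. In lin-52 there are 3 CHR words, and the E2F word begins 26 bases downstream of the summit. A match is a description of letters and not a binding site.

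HMG-20 had a summit in the promoter window of 4 of the 8 genes, which were lin-53, lin-9, lin-54 and efl-1, in the authors' conservative thresholded list from both replicates. The promoter window ran from 1000 bp upstream to 200 bp downstream of any annotated 5' end, and 3.13% of the 19973 protein-coding genes had a summit in it. All 4 summits lay upstream of the gene, at 170 to 357 bp from the nearest 5' end. No conservative summit lay inside any of the 8 genes, so the count was also 4 of 8 for the window from 1000 bp upstream to the 3' end, against 4.25% of protein-coding genes. The other 4 genes were lin-35, lin-37, lin-52 and dpl-1. These 8 genes were chosen on the same values, so nothing is read from the difference to the background.

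**Figure D1:**
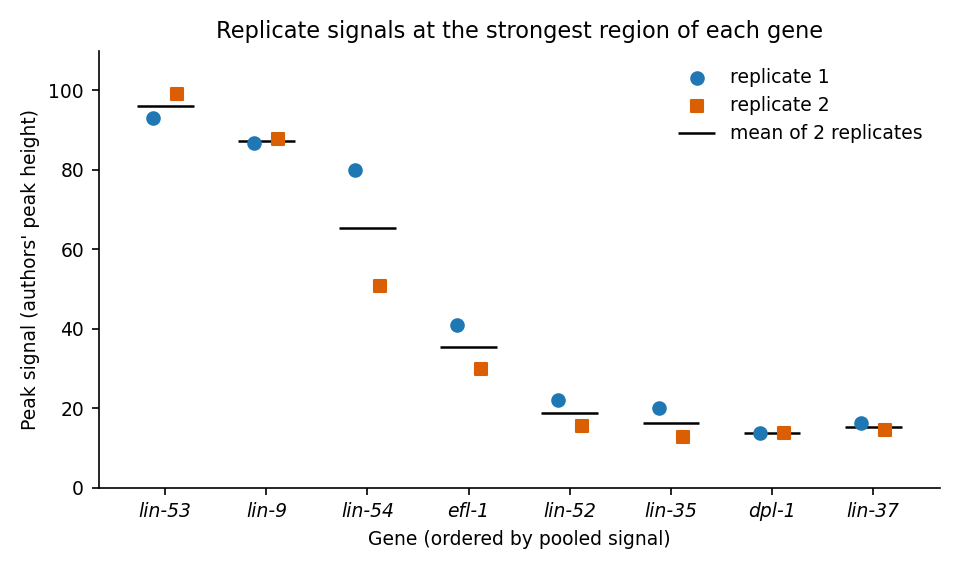
Peak signal (the authors' peak height, linear axis) of replicate 1 (circles) and replicate 2 (squares), with the mean of both as a line. The region shown for each gene is the one with the strongest pooled signal from 1000 bp upstream to the 3' end. The means at these regions run from 96.0 at lin-53 to 13.8 at dpl-1. Both replicates of lin-53, lin-9, lin-54 and efl-1 lie above every replicate of the other 4 genes. These are the genes in the conservative list, whose threshold rests on the same replicate signals, so the gap is not separate support.

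Each region has a pooled signal from both replicates and a signal in each replicate, all on the scale of the authors' peak caller, which the files do not state. It also has a score, a scaled log of the irreproducible discovery rate (IDR) with a ceiling of 1000, which matched the deposited IDR within 1 unit in all 59116 regions of the ranked list. The IDR estimates what share of the regions ranked at least as high would not recur between replicates. The lowest score in the conservative list is 830, an IDR of 0.01.

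Among the MuvB genes, lin-53 had the strongest region. It encodes a histone-binding WD40 protein, related to RbAp46 and RbAp48 of mammals, which is also part of other chromatin complexes. The gene (WBGene00003036) lies on chromosome I at 9618196 to 9619760 on the minus strand. Its region at 9619920 to 9620020 had a signal of 93.0 in replicate 1 and 99.0 in replicate 2, or 96.0 ± 4.24 (SD, n = 2), and a pooled signal of 197.2. That pooled signal ranked 63 of the 59096 nuclear regions and 47 of the 979 nuclear regions of the conservative list. The replicates differed by little, with a ratio of replicate 1 to replicate 2 of 0.939. The summit lay 223 bp upstream of lin-53 and 244 bp upstream of nra-2, on the other side of it, so it was in both promoter windows. nra-2 encodes a nicalin-like protein that acts in nicotinic receptor assembly. Only 1 other ranked region lay in the lin-53 window, in a coding exon 312 bp downstream of the 5' end, with a pooled signal of 34.6 and a score of 130.

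The lin-9 region was nearly as strong and its replicates were the closest of the 4. LIN-9 is a core subunit of MuvB. The gene (WBGene00002998) lies on chromosome III at 8900237 to 8904131 on the minus strand. Its region at 8904260 to 8904370, 170 bp upstream, had a signal of 86.9 in replicate 1 and 87.7 in replicate 2, or 87.3 ± 0.562 (SD, n = 2), and a pooled signal of 171.9 that ranked 94 of all nuclear regions. The ratio of the replicates was 0.991, and 1.94% of the conservative regions had a smaller difference on the log2 scale. The summit lay in no other gene's promoter window, which was so for lin-9 alone among the 4 genes. The regions of lin-53 and lin-9 were also narrow, at 101 and 111 bp, whereas 906 of the 979 conservative regions were 256 bp wide. Region widths were set by the authors' caller.

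The remaining lin-9 regions held the strongest region below the threshold among the 8 genes. It lay in an intron 2954 bp downstream of the 5' end, with 19.995 in replicate 1 and 21.4 in replicate 2, a pooled signal of 42.0 and a score of 354, an IDR of 0.140. The efl-1 promoter region, with an IDR of 0.00236, was the nearest to the threshold from inside it. No region of the 8 genes had a score between 354 and the 830 of the threshold. The other 4 lin-9 regions had pooled signals from 2.21 to 27.1, and they form 2 pairs of neighbours that repeat the same replicate intervals and signals.

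The lin-54 region had the largest gap between replicates of the 4. LIN-54 is the subunit of MuvB that binds DNA directly. The gene (WBGene00003037) lies on chromosome IV at 13241044 to 13243401 on the plus strand. Its region at 13240559 to 13240814 had 80.0 in replicate 1 and 50.7 in replicate 2, or 65.4 ± 20.7 (SD, n = 2), and a pooled signal of 135.9 that ranked 142 of all nuclear regions. The ratio of replicate 1 to replicate 2 was 1.58, a log2 difference of 0.66, and 83.5% of the conservative regions had a smaller one. The summit lay 357 bp upstream of lin-54 but 36 bp upstream of rpl-12, the gene of a large-subunit ribosomal protein on the opposite strand. When each summit was given only to the gene with the nearest 5' end, the peak went to rpl-12. Under that rule 3 of the 8 genes kept a promoter summit, against 1.71% of protein-coding genes. A further conservative summit lay upstream of the lin-54 window, 476 bp beyond its edge, with a pooled signal of 61.3 and a score of 938. The 4 other ranked regions of lin-54 had scores of 27 to 141, and in the coding exon 338 bp downstream of the 5' end the signal was 19.8 in replicate 1 and 9.72 in replicate 2.

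**Figure D2:**
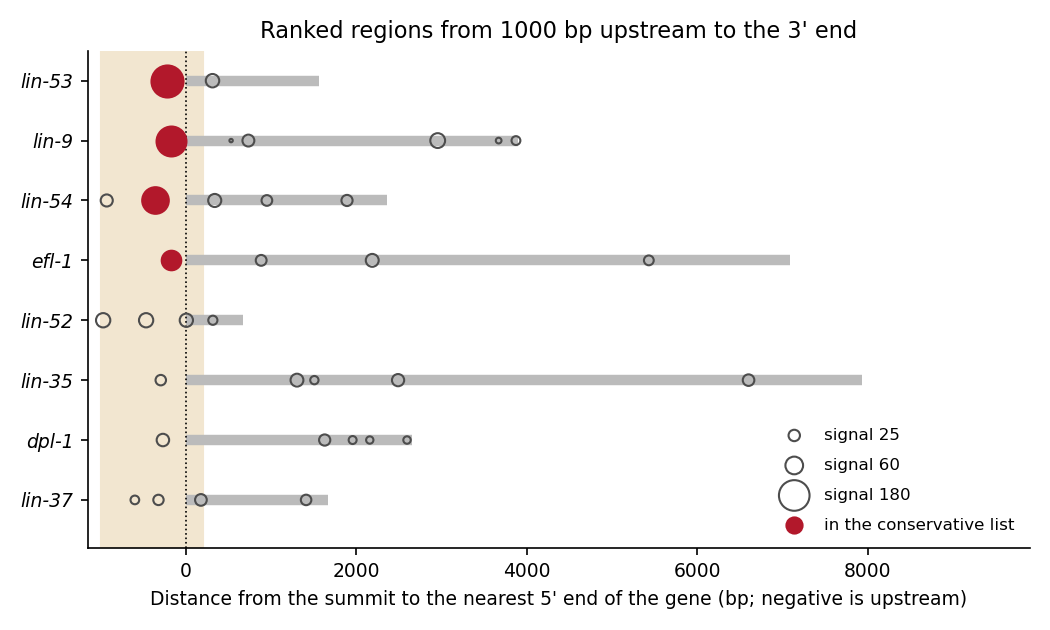
Position of all 35 ranked regions of the 8 genes, as the summit's distance in bp from the closest 5' end of its gene (negative is upstream). Circle area is proportional to the pooled signal, filled circles are in the conservative list, grey bars show gene length, and the shaded band is the promoter window from 1000 bp upstream to 200 bp downstream. The 4 filled circles lie at 170 to 357 bp upstream and the 31 open ones are spread over promoters and gene bodies.

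The E2F gene efl-1 had the weakest of the 4 listed regions, and the calls on it depended on the list. EFL-1 is the E2F-family factor that pairs with DPL-1. The gene (WBGene00001161) lies on chromosome V at 16958590 to 16965675 on the minus strand. Its region at 16965718 to 16965973, 171 bp upstream, had 41.1 in replicate 1 and 29.8 in replicate 2, or 35.5 ± 7.98 (SD, n = 2), and a pooled signal of 73.5 that ranked 618 of all nuclear regions. That is near the middle of the conservative list, where the median was 76.8 and 44.6% of regions were lower. The region had the top score of 1000 between replicates, but 629 in the other ranked list of the series, 503 in the list of replicate 1 alone and 117 in that of replicate 2 alone, all below 830. The region was absent from the other thresholded list and from both replicates' thresholded lists, whose own cut-offs are not given here. The F-box gene fbxa-90 also had this summit in its promoter window, at 968 bp upstream. The 3 other efl-1 regions lay in the gene body with scores of 27 to 193, and the strongest of them, in a coding exon, had a pooled signal of 31.96.

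The regions of lin-53, lin-9 and lin-54 were in all 4 thresholded lists. Each of them had a score of 1000 in the list of each replicate alone. Among the regions of replicate 1's own list they ranked 87, 97 and 118 by signal, and among those of replicate 2 they ranked 65, 84 and 272. In each replicate's thresholded list 3 of the 8 genes had a promoter summit, against 1.75% of protein-coding genes in replicate 1 and 1.56% in replicate 2. The other thresholded list of the series gave 3 of 8, against 3.13%. All ranked regions with an IDR of at most 0.01 gave 4 of 8, against 3.14%, and those with an IDR of at most 0.05 gave the same 4, against 4.78%.

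**Figure D3:**
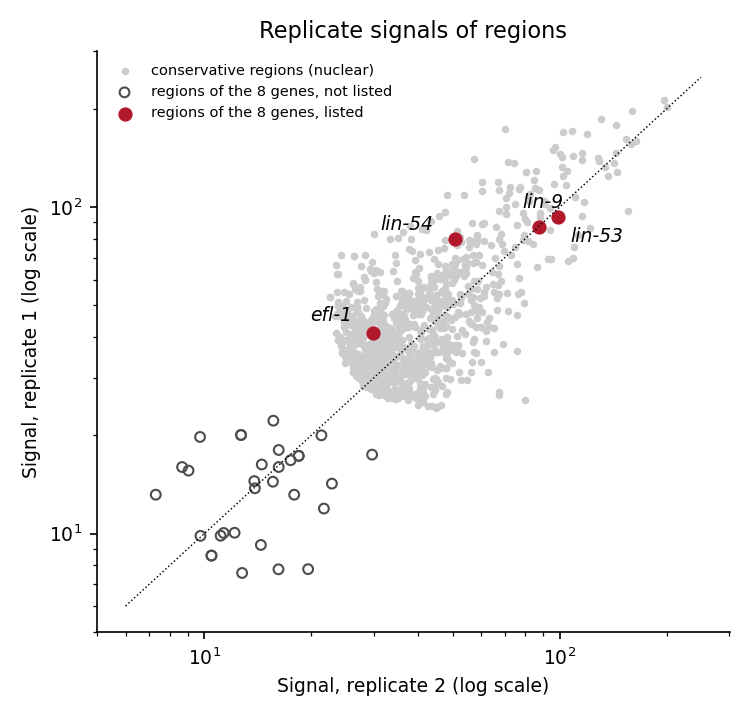
Signal of replicate 1 against replicate 2 (both axes logarithmic) for the 979 nuclear regions of the conservative list (grey) and the 35 regions of the 8 genes. The 4 listed regions (filled) lie within the grey cloud, lin-53 and lin-9 close to the dotted line of equal signal and lin-54 and efl-1 above it, and the 31 other regions (open) lie below the cloud.

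Across the conservative list replicate 1 was higher at 611 of 979 regions, or 62.4%, and the median log2 ratio of replicate 1 to replicate 2 was 0.16, with the middle of the distribution from -0.18 to 0.47 (quartiles). The ratios at lin-53 and lin-9, of -0.09 and -0.01, lay inside the quartiles, and so did that of efl-1, at 0.46. The ratio at lin-54, at 0.66, lay above the upper quartile and below the 95th percentile of 0.99. The replicate columns of the ranked list carry no names. In the first column 34766 of 59096 intervals and signals were identical to entries of replicate 1's own ranked list and 0 to entries of replicate 2's, and in the other column 34098 were identical to entries of replicate 2's and 0 to entries of replicate 1's.

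The 4 genes with no conservative summit had much weaker regions. Their strongest regions had pooled signals of 26.2 to 39.3, against 73.5 to 197.2 for the 4 listed genes, a split that the threshold itself makes. The nearest conservative summit to a 5' end of these genes lay 29361 bp away at lin-37, 36942 bp at lin-52, 41948 bp at dpl-1 and 100716 bp at lin-35. All 8 genes had at least 1 ranked region of any score in the promoter window, against 54.6% of protein-coding genes.

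lin-52 had the strongest regions of these 4. LIN-52 is the small MuvB subunit that in human cells links the core to the pocket protein. The gene (WBGene00003035) lies on chromosome III at 9824083 to 9824750 on the minus strand. A region 467 bp upstream, inside the neighbouring gene ZK632.9, had 17.4 in replicate 1 and 29.7 in replicate 2, with a pooled signal of 39.1 and a score of 300. Another lay 971 bp upstream, just inside the window and 289 bp upstream of ZK632.9, with 22.2 and 15.6 and a pooled signal of 39.3, which is shown as sequence above. The replicates thus differed in which of these regions was higher. A region at the 5' end itself, 5 bp downstream in the UTR, had 11.9 in replicate 1 and 21.7 in replicate 2. Beyond the window, 525 bp farther upstream, stood a region with a pooled signal of 53.6 and a score of 711, still below 830.

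lin-35 encodes the worm's single retinoblastoma-family pocket protein. The gene (WBGene00003020) lies on chromosome I at 5807709 to 5815637 on the plus strand. The only region in its promoter window, 295 bp upstream, had 7.78 in replicate 1 and 19.6 in replicate 2, a ratio of 0.397, with a pooled signal of 21.1 and a score of 55. That summit lay 123 bp upstream of vps-51, a vesicle-tethering gene that reads the other way. The strongest lin-35 region was intronic, 1303 bp downstream of the 5' end and inside C32F10.4, with 20.04 in replicate 1 and 12.7 in replicate 2 and a pooled signal of 31.7. The summit 1507 bp downstream repeats the same replicate signals, and another intronic summit, 2489 bp downstream, lay 196 bp upstream of C32F10.4 with a pooled signal of 28.6.

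dpl-1 encodes the DP partner of EFL-1. The gene (WBGene00001061) lies on chromosome II at 9169910 to 9172565 on the plus strand. Its strongest region by pooled signal lay 270 bp upstream and inside T23G7.2. It had 13.8 in replicate 1 and 13.9 in replicate 2, with a pooled signal of 29.9 and a score of 108. The replicates were nearly equal here at a low level, and the median pooled signal of all ranked regions was 22.7. The nearest summit outside the window was 79 bp beyond its upstream edge, with a pooled signal of 14.5. The 4 regions in the gene body had pooled signals of 10.3 to 24.2.

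By pooled signal, the strongest region of lin-37 was the lowest of the 8 genes. Among the regions picked by pooled signal, that of dpl-1 had the lowest mean of the replicates, at 13.8. The highest mean at any region was lower for lin-37, at 15.5, than for dpl-1, at 17.1. LIN-37 is the MuvB subunit that in mammalian cells is needed for repression by DREAM. The gene (WBGene00003022) lies on chromosome III at 7070890 to 7072552 on the minus strand, 60 bp from ZK418.5 on the same strand. A region in a coding exon 176 bp downstream of the 5' end had 16.3 in replicate 1 and 14.5 in replicate 2, with a pooled signal of 26.2 and a score of 141. A pair of upstream regions, 322 and 599 bp away and both inside ZK418.5, had pooled signals of 20.6 and 14.5. They share a single interval in replicate 1, with a signal of 13.2, whereas in replicate 2 they had 17.9 and 7.30.

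**Figure D4:**
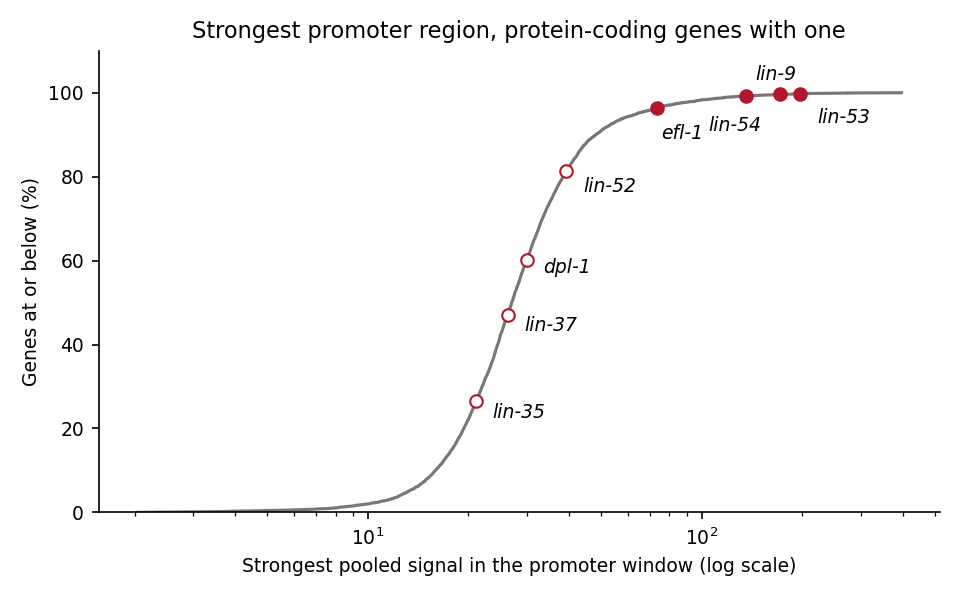
Cumulative share of the 10906 protein-coding genes with a ranked region in the promoter window (y axis, %), by the pooled signal of the strongest such region (x axis, logarithmic). Filled points are DREAM genes in the conservative list and open points the other 4. lin-53, lin-9 and lin-54 lie above 99% of genes and lin-35 above 26.5%.

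Set against the strongest promoter region of each of 10906 protein-coding genes that had one, the 8 genes covered most of the range. lin-53 was above 99.7% of these genes, lin-9 above 99.6%, lin-54 above 99.2% and efl-1 above 96.4%. lin-52 followed at 81.3%, dpl-1 at 60.02%, lin-37 at 47.1% and lin-35 at 26.5%. The median over all these genes was 26.97, with quartiles of 20.7 and 35.6. The pooled signals carry no error. The replicate signals were compared at the region of each gene with the strongest pooled signal. There lin-53, lin-9, lin-54 and efl-1 followed in that order with no overlap between neighbours. The lower replicate of efl-1, at 29.8, lay above the higher one of lin-52, at 22.2. At the lin-52 region 467 bp upstream, however, replicate 2 had 29.7, just below that 29.8. At the regions picked by pooled signal, the ranges of lin-52, lin-35 and lin-37 overlapped, and both replicates of dpl-1 lay within the range of lin-35. With 2 replicates each, the order of neighbours was not tested.

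Of the 35 regions, 31 were not in the conservative list, with pooled signals of 2.21 to 42.0 and a median of 23.8. By location 12 of these lay in coding exons, 8 in introns, 4 in UTRs and 7 upstream, whereas all 4 listed regions lay upstream. The 35 regions are not 35 independent readings. They rest on 30 intervals in replicate 1 and 31 in replicate 2, and 3 pairs of neighbours repeat both. The lowest possible score, 27, was given to 12 of them. The windows of the 8 genes held a median of 1.30 ranked regions per kb, with a range of 0.495 to 2.40. All protein-coding genes had a median of 0.601, with quartiles of 0 and 0.999, and the difference was not tested.

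The 4 listed genes all had an upstream neighbour on the opposite strand, a common arrangement that the peak values did not use. In each of them the nearest protein-coding gene upstream that does not overlap it was read in the opposite direction, at gaps of 392 to 1483 bp. For lin-9 that gene is unc-32. Among the other 4, lin-35 and dpl-1 had such a neighbour, and lin-37 and lin-52 stood 60 and 126 bp from a gene on the same strand. A neighbour on the opposite strand was found for 45.4% of the 19968 protein-coding genes with any upstream neighbour and for 61.4% of the 625 with a conservative promoter summit. With 4 genes on each side this was not tested.

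The sequence near the summits was described at 50 and at 100 bases on each side. Within 50 bases, a CHR word was found at 3 of the 4 listed summits, against 18.3% of all 979 conservative summits and 23.9% of all ranked ones. Within 50 bases, an E2F word was found at 0 of the 4, against 10.7% and 4.79%. Within 100 bases the E2F words were found at all 4, against 18.3% of conservative and 8.75% of ranked summits, and a CHR word at all 4, against 39.6% and 43.4%. At the strongest summits of the other 4 genes, the lin-52 summit was the only one with an E2F word at either distance. A CHR word was found at those of lin-52 and dpl-1 within 50 bases, and of lin-35, lin-52 and dpl-1 within 100 bases. Over the strongest summits of all 8 genes, a CHR word was found at 5 within 50 bases and at 7 within 100. In the promoters from 250 bp before to 50 bp after the 5' end, an E2F word was found at 3 of the 8 genes, which were lin-9, lin-53 and efl-1, against 9.20% of all protein-coding promoters. In the same promoters a CHR word was found at 6 of the 8 genes, against 68.9% of all, and GAGAGA at 3 of the 8, which were lin-9, lin-37 and dpl-1, against 21.8%. GAGAGA was found within 50 bases of 1 of the 4 listed summits, that of lin-9, against 15.8% of conservative summits. The median GC content within 50 bases was 53.0% at the 4 listed summits (range 40.6 to 57.4), 49.5% at all conservative summits and 41.6% at all ranked ones. The lin-54 summit, at 40.6%, lay below the median of the ranked summits and the other 3 lay above it, and the part of GC content in the word counts was not tested.

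The share of related genes with a promoter summit was near that of all protein-coding genes. Of 39 related genes that are not subunits of the complex, 1 had a conservative summit in its promoter window, or 2.56%, against 3.13% of protein-coding genes. The count was 0 of 8 for the other synthetic multivulva B genes (lin-13, lin-15B, lin-36, lin-61, lin-65, hpl-2, met-2 and tam-1) and 0 of 4 for the class A genes (lin-8, lin-15A, lin-38 and lin-56). Among 8 genes of the NuRD and MEC complexes the 1 with a summit was lin-53 itself, and let-418, chd-3, mep-1, hda-1, lin-40, rba-1 and dcp-66 had none. Of 12 E2F relatives and regulators of entry into S phase, 1 had a summit, the cyclin E gene cye-1. That summit lay 590 bp upstream, in a region it shares with pqn-21, with 39.0 in replicate 1 and 24.1 in replicate 2, a pooled signal of 63.0 and a score of 851. It was in neither replicate's thresholded list. Of 8 P granule genes, which DREAM is known to keep silent in somatic cells, 0 had a summit. The hmg-20 promoter itself had a region 718 bp upstream, with 34.6 in replicate 1 and 34.1 in replicate 2. Its pooled signal of 71.1 was close to the 73.5 of efl-1. That region was likewise in neither replicate's thresholded list.

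The genes with the most similar signals were taken as those with the smallest distance on the log2 scale over the 2 replicates, among 621 other protein-coding genes with a conservative promoter summit. For lin-9 these were drr-2 and set-16, which share a summit with 89.8 in replicate 1 and 81.1 in replicate 2. For lin-53 they were ntl-11, with 99.7 and 93.7, and eif-3.C, with 96.2 and 88.2. For efl-1 they were T21B10.3, with 41.2 and 29.9, and spc-1, with 40.3 and 30.3. The likeness is over 2 values and carries no statement on function.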

How the data were processed

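Per the labels, 1 group of 2 biological replicates was sequenced. By the deposited file descriptions, each replicate has a ranked and a thresholded IDR peak list, and the series has 2 of each from both replicates, on ce11. The names of the aligner and peak caller were not given in the sources used here. The deposited signal column is the authors' peak height, the deposited score is the scaled IDR, and the deposited −log10 column used here holds the global IDR. Positions were joined to Ensembl release 115 (WBcel235) and sequence read from the RefSeq assembly of that build, and 0 ranked regions ran past its chromosome ends. Mitochondrial regions were left out. A region was counted as present in a list if its summit lay in a listed region. The members, gene lists, words and alternatives were chosen with earlier results of these data known. The genes named are the 8 members, genes sharing their summits, related genes with a summit, hmg-20 and the genes with the nearest signals. The genes nearest in signal to lin-54 are not reported here. A pseudogene and a piRNA gene downstream of lin-9, and tag-115 and JC8.4 near lin-54, share only summits below the threshold. Assignment and word counting were tested on simulated summits and words. Counts were compared across all protein-coding genes, without tests. Python 3.11.15, NumPy 2.4.6, pandas 2.3.3 and matplotlib 3.10.9 were used.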

Additional observations from a re-analysis of the deposited data

How the results depend on the processing

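Read depth is not known, 2 replicates allow no test of a single region, and the control was not analysed. The count of DREAM genes with a promoter summit was 3 or 4 of 8 under every alternative run, against 1.56% to 4.78% of protein-coding genes. It was 3 without efl-1 in the other series list and in each replicate's list, and 3 without lin-54 with the nearest 5' end only. The count from 1000 bp upstream to the 3' end was likewise 3 or 4, against 2.06% to 7.30% of protein-coding genes. The share of related genes with a summit was 0% in each replicate's list (without the other replicate), with 500 bp around each 5' end and with the nearest 5' end only, and 5.13% with 2000 bp upstream, all on 0 to 2 genes. The median pooled signal of the strongest region of the 8 genes, 56.4, was 33.4 when the region nearest to a 5' end was taken, which gives lin-54 its exonic region. It was 25.8 to 31.6 on the scale of a single replicate, which is lower than the pooled one. The median size of the log2 ratio of the replicates was 0.315, and 0.46 over the 7 genes whose strongest region is in both replicates' own lists, since dpl-1 is left out. The number of ranked regions was 32 to 46 with other windows or the other ranked list, and the other overlap rules left the count of members' regions found in the 4 thresholded lists at 13. No paired analysis was possible because there is 1 group.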
